A study of Mus musculus with 48 samples.

Results

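The lungs of C57BL/6J (B6) mice taken 4 weeks after the last exposure to gas metal arc-mild steel (GMA-MS) welding fume were compared with the lungs of B6 sham mice of the same time. These 8 arrays, 4 in each group, were chosen by the strain, treatment and recovery time in the sample labels, out of 48 arrays in the series. The GMA-MS mice received fume particles suspended in phosphate buffered saline into the lung, 5 mg/kg at each of 4 exposures within 10 days, and the sham mice received the saline alone. Both groups were inbred males, obtained at 4 weeks of age, and both recovered for 28 days. Each array held RNA from 1 whole lung homogenate on an Illumina MouseRef-8 v1.1 beadchip, which reads every probe as the mean fluorescence intensity over its beads. The 24 arrays of the 4 week time point also held GMA-MS and sham lungs of A/J mice, and lungs of both strains given gas metal arc-stainless steel (GMA-SS) fume. They lay on 4 beadchips with 1 array of each group on each beadchip, and arrays are numbered here by beadchip. Each group had the same place on every beadchip, so that place and group cannot be told apart.

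Mild steel fume is rich in iron and carries manganese. Particles that reach the alveoli are taken up by alveolar macrophages, which store the iron in ferritin, break down heme with heme oxygenase 1 and restrict iron uptake through the transferrin receptor. Immediate early genes such as Fos and Egr1 are transcribed within minutes of a growth factor, stretch or stress signal, before any new protein is made, and their products switch on further genes. The circadian clock of the lung is a loop in which Clock and Arntl activate Per, Cry and Nr1d1, and the products of these genes repress the loop again. In RNA of a whole lung, fewer cells of a type and less RNA per cell cannot be told apart.

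The 250 bases before and 50 bases after the transcription start are shown for 5 genes on which the results turn, from RefSeq windows of build GRCm38.p6. The genes are Fos, Dusp1, Ccn1 and Nr4a2, which were lower in GMA-MS lungs, and Nr1d1, which was higher. Each is written 5′ to 3′ on the strand of its gene, and capitals mark every match to a searched motif on either strand. The Fos window lies at chr12:85473640-85473939 on the plus strand, and the minus strand windows are Dusp1 at chr17:26508423-26508722, Ccn1 at chr3:145649936-145650235, Nr4a2 at chr2:57123954-57124253 and Nr1d1 at chr11:98775328-98775627.
Fos: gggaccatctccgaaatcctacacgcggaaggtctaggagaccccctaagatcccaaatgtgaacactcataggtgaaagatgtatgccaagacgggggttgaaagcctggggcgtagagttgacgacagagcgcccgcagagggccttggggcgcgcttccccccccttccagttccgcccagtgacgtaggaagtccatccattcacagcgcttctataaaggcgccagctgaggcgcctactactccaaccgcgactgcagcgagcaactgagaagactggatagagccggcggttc
Dusp1: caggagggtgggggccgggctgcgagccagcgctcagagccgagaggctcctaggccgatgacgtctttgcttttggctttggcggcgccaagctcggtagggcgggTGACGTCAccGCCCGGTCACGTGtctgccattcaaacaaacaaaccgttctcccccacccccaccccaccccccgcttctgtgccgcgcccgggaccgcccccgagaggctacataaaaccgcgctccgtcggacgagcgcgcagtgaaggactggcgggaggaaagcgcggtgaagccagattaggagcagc
Ccn1: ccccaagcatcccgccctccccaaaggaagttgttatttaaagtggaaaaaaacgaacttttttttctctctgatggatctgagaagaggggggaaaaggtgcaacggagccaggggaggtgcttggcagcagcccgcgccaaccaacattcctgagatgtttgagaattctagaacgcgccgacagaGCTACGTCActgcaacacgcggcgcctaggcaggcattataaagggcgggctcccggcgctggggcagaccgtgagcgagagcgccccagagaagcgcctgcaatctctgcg
Nr4a2: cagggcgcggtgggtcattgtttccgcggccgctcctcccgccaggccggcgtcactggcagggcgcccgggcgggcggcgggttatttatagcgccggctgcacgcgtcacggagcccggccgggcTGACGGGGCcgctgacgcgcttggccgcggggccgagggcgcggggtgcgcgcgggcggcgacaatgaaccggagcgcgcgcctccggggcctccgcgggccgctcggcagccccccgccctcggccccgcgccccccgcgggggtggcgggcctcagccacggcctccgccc
Nr1d1: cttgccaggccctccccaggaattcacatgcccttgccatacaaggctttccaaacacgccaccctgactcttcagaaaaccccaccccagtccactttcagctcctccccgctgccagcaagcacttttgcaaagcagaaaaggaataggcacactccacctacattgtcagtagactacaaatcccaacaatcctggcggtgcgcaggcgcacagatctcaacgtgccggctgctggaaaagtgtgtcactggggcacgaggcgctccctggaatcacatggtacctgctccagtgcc

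The motifs searched were the CArG box of serum response factor, the cAMP response element TGACGTCA, the AP-1 site TGANTCA, the E-box CACGTG, the D-box TTANGTAA and the core of the antioxidant response element, TGANNNNGC. Of all 32851 windows, 1.63%, 1.79%, 7.81%, 7.15%, 2.32% and 41.3% held these motifs in this order. The Dusp1 window held a cAMP response element that begins 143 bases before the start, and an E-box that begins 126 bases before it and overlaps a match to the antioxidant core. The Ccn1 and Nr4a2 windows each held 1 match to the antioxidant core, and the Fos and Nr1d1 windows held none of the 6 motifs. Windows were found for 34 of the 37 named genes called below, 21 of the 22 lower and 13 of the 15 higher. These 34 genes had 41 windows. A gene is counted if any of its windows held the motif, while the shares above are of single windows. A cAMP response element was in windows of 2 of the 21 lower genes, Dusp1 and Slc25a25, and of 0 of the 13 higher genes. An E-box was in windows of 3 lower and 2 higher genes, an AP-1 site in windows of 0 lower and 2 higher genes, and the antioxidant core in windows of 8 lower and 5 higher genes. A CArG box was in the window of 1 lower gene, Actc1, and a D-box in a window of 1 lower gene, Slc25a25. A match is a description of the letters and not a measured site.

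The GMA-MS arrays detected 10484 to 11255 probes and the sham arrays 10526 to 11421, with a median of 34 to 36 beads per probe. Lung markers were at like levels in both groups: the median log2 intensity of 13 genes of type 2 alveolar cells and surfactant was 13.49 to 13.63 in GMA-MS lungs and 13.44 to 13.59 in sham lungs, and that of 22 genes of lung endothelium was 13.08 to 13.26 in GMA-MS lungs and 13.12 to 13.17 in sham lungs. None of the 11 liver genes was detected. Genes of other tissues differed from array to array. The median level of 10 genes of stratified squamous epithelium was 11.52, 6.87, 6.97 and 7.07 on GMA-MS arrays 1 to 4, against 10.66, 10.97, 6.90 and 10.07 on sham arrays 1 to 4. It was therefore high on 1 GMA-MS array and 3 sham arrays and low on both arrays of beadchip 3. The median level of 13 skeletal muscle genes was 11.06, 7.61, 7.55 and 10.46 on the GMA-MS arrays, against 10.31, 11.42, 7.50 and 10.73 on the sham arrays. For 14 cardiac muscle genes it was 10.77 to 10.96 in GMA-MS lungs and 10.85 to 11.47 in sham lungs. All 10 detected squamous genes, all 13 skeletal muscle genes and 13 of the 14 cardiac genes had a lower mean in GMA-MS lungs on their brightest probe. On these probes 0 of the 37 genes passed the test. A dimmer probe of the cardiac gene Actc1 was called lower (log2 difference −0.35, adjusted p = 0.022 in limma). The squamous genes had a median difference of −1.49 on the log2 scale, and the largest was that of Lor, loricrin of the cornified envelope, at −3.55.

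**Figure D1:**
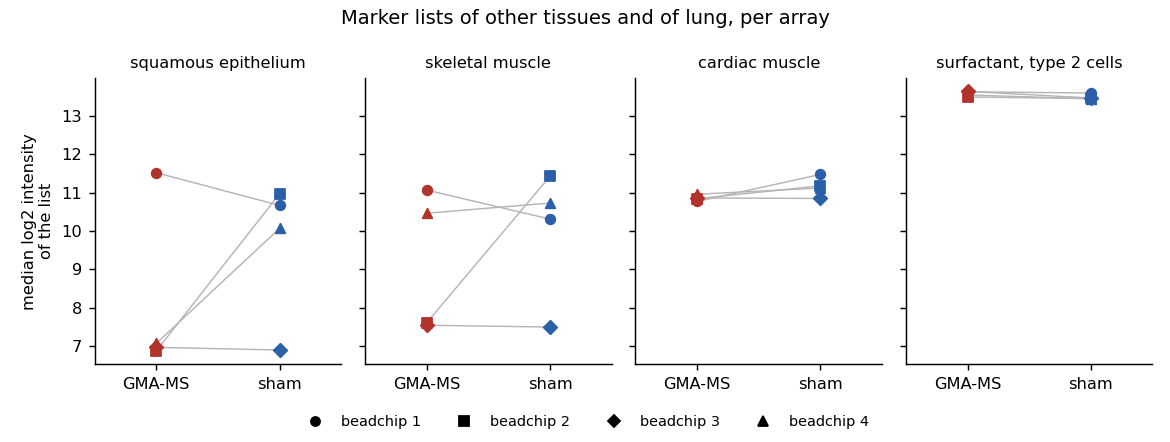
Median log2 normalized intensity of 3 lists of other tissues and of the surfactant list (y axis) on each GMA-MS and sham array, with lines joining arrays of 1 beadchip. Squamous genes were high on GMA-MS array 1 and sham arrays 1, 2 and 4, while the surfactant list stayed between 13.44 and 13.63 on all 8 arrays.

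The comparison asked which genes of the B6 lung still differed 4 weeks after GMA-MS. Few did. Of 11624 probes detected on at least 4 of the 24 arrays, 43 were called at an adjusted p under 0.05, which is 0.37% of the probes tested, 18 of them higher in GMA-MS lungs (0.155%) and 25 lower (0.215%). Each difference was estimated with limma in a fit of the 6 groups with the beadchip as a block and Benjamini-Hochberg adjustment, and each is GMA-MS minus sham on the log2 scale with n = 4 lungs per group. The calls named 37 genes, 15 higher and 22 lower, and 3 of the probes carried no gene name. Of the 43 probes, 28 changed by 1.3 fold or more, 11 higher and 17 lower, and the sizes ran from 0.24 to 1.68 on the log2 scale. All 43 probes had the same sign on the 4 beadchips. For 32 of them the 4 GMA-MS values did not overlap the 4 sham values, which held for 332 probes in all, or 2.86%. Over all probes the median difference was 0.01 and 1135 probes had an unadjusted p under 0.05.

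These calls depended on the fit. With the beadchip left out of the model 6 probes were called, all lower, those of Egr1, Fos, Ccn1, Il1b, Nr4a2 and Kcne4, and with arrays scaled to the median of probes detected on every array 0 were called higher and 5 lower. With the 8 arrays of the compared groups alone, where the spread is estimated from fewer arrays, 0 were called and 1400 probes had an unadjusted p under 0.05. Without GMA-MS array 1, 2, 3 or 4 the count was 22, 10, 10 and 20, and without sham array 1, 2, 3 or 4 it was 18, 13, 24 and 14. With the squamous, skeletal muscle or cardiac muscle level of each array as a covariate, chosen after seeing the data, 24, 26 and 18 probes were called, and 18 of the 43 probes kept their call with each of these covariates. No called probe changed its sign in any of these fits. The probes called with every array left out in turn were those of Egr1, Fos, Nr4a2, Tob1, Csrnp2 and Kcne4 and 1 of Ccn1, all lower, and that of Gpr146, higher. Of the 43 probes, 11 stayed called in at least 4 of the 8 fits that left out an array. Both probes of Gpnmb and those of Tfrc, Hmox1, Ccl6, Adm, Calcrl and Chac1, among others, kept their call in 1 of the 8. The calls of Hmgb1, Myd88, Wipi1, Rai1, Chtf18, Vsig2 and Ears2 were lost with any 1 array left out.

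**Figure D2:**
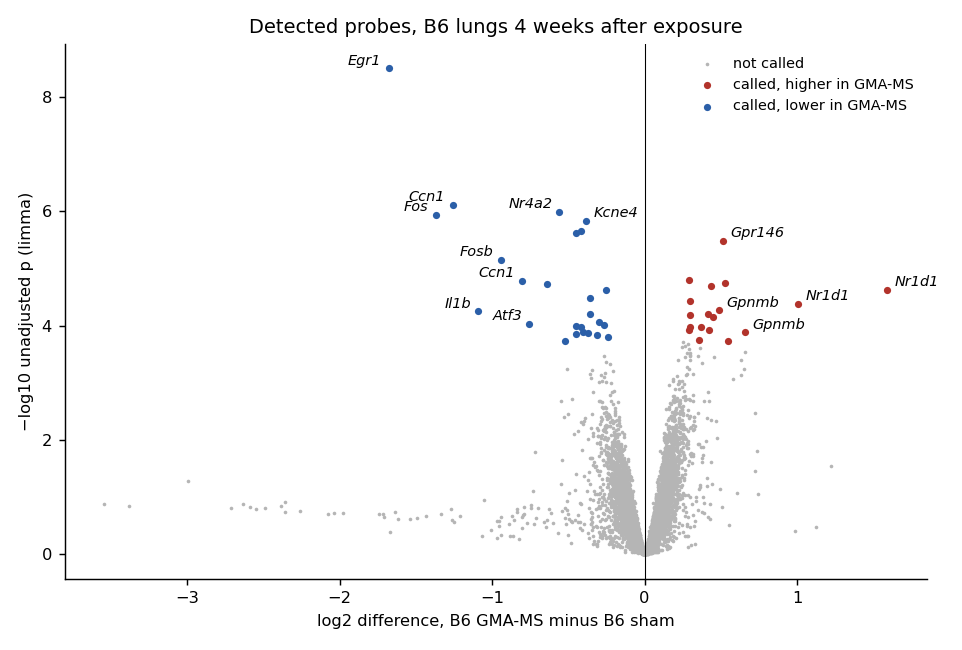
Difference between B6 GMA-MS and B6 sham lungs on the log2 scale (x axis) and −log10 of the unadjusted p of limma (y axis) for the 11624 detected probes. Red points are the 18 probes called higher in GMA-MS lungs and blue points the 25 called lower; the grey points farthest to the left are Lor at −3.55 and Krt13 at −3.38, both squamous genes, which were not called.

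Of 24 detected immediate early genes, 6 were called, all lower in GMA-MS lungs, and 18 did not pass the test. Of the 24, 21 had a lower mean and 3 a higher one, and the median difference was −0.22, against 47.0% of all probes with a lower mean. The groups did not overlap for 8 of the 24, against 2.86% of all probes. Of all probes 0.37% were called, and these shares are the background for each list below. The median level of the list was 10.22, 10.44, 10.28 and 10.39 in GMA-MS lungs, against 10.59, 10.77, 10.572 and 10.60 in sham lungs. On the other 16 arrays of 4 weeks it was 9.98 to 10.568. The GMA-MS lungs lay within that range, and every sham lung lay above it, the lowest by little. The median difference of the list was −0.31, −0.29, −0.17 and −0.14 on beadchips 1 to 4, while that of the squamous list was 0.72, −4.01, 0.08 and −2.89. Both arrays of beadchip 3 had low squamous levels. With the squamous level as a covariate, chosen after seeing the data, Egr1, Fos, Fosb, Dusp1 and Nr4a2 stayed called. Their differences were then −1.68, −1.49, −0.98, −0.675 and −0.55. Atf3 differed by −0.74 and lost its call (adjusted p = 0.066 in limma). The part of other tissues in these differences was not tested further.

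Egr1, a zinc finger transcription factor on chromosome 18, had the largest called difference. Its log2 intensity was 11.28, 10.83, 11.06 and 11.34 in GMA-MS lungs, against 13.32, 12.35, 12.92 and 12.63 in sham lungs. All GMA-MS values lay below all sham values, and the highest sham value was that of sham array 1. The means were 11.13 ± 0.23 in GMA-MS lungs and 12.80 ± 0.41 in sham lungs (SD, n = 4 each), a difference of −1.68 ± 0.16 (SE) or 3.20-fold lower, with an adjusted p of 3.6e-05 in limma. Egr1 was also called without the beadchip in the model, with an adjusted p of 4.4e-05 in limma, and with the 8 arrays alone its adjusted p was 0.051.

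Fos, a subunit of the AP-1 transcription factor, read 9.53, 10.27, 9.95 and 10.45 in GMA-MS lungs, against 11.28, 11.37, 12.01 and 11.01 in sham lungs. The groups did not overlap, and the difference was smallest on beadchip 4. Fos was 2.58-fold lower in GMA-MS lungs (log2 difference −1.37 ± 0.19 SE, adjusted p = 0.0033 in limma). Fosb, which codes for a related AP-1 subunit, read 7.41, 7.62, 7.49 and 7.94 in GMA-MS lungs, where 1 of 4 arrays detected it, against 8.48, 9.12, 7.998 and 8.64 in sham lungs, where all 4 did. Fosb was 1.92-fold lower, without overlap (adjusted p = 0.0090 in limma), and with the deposited values its difference was −0.47 against −0.94. Fosl2, a further member of the Fos family, differed by −0.25 ± 0.09 with an adjusted p of 0.34 in limma. The Jun family partners of Fos had differences of −0.36 for Junb, −0.13 for Jun and −0.04 for Jund, none of which passed the test.

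Dusp1, a phosphatase that switches off MAP kinases, read 13.54, 13.64, 13.74 and 13.75 in GMA-MS lungs, against 14.32, 14.27, 14.50 and 14.13 in sham lungs. It was 1.56-fold lower without overlap (log2 difference −0.64 ± 0.11 SE, adjusted p = 0.017 in limma). Nr4a2, an orphan nuclear receptor, read 8.83, 8.54, 8.66 and 8.42 in GMA-MS lungs, against 9.27, 9.19, 9.18 and 9.03 in sham lungs, and was 1.47-fold lower (adjusted p = 0.0033 in limma). Its difference was similar on the 4 beadchips, from −0.45 to −0.65. Atf3, a stress-induced transcription factor, was not detected on any GMA-MS array and was detected on 3 sham arrays, and the measured values overlapped. Atf3 was 1.69-fold lower in GMA-MS lungs in the fit (adjusted p = 0.038 in limma), and 1.54-fold lower under a bound. With the deposited values it differed by −0.33 and was not called (adjusted p = 0.071 in limma). The bound sets the 4 GMA-MS values at the lowest detected signal of their arrays where they lay under it. It leaves the sham values as measured, though not all were detected, so it is no strict lower limit. Ptgs2, which codes for cyclooxygenase 2, was not detected in GMA-MS lungs either and did not pass the test, with an adjusted p of 0.099 in limma. Egr2 and Srf had means below sham without overlap, with differences of −0.25 each, and neither passed the test.

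Ccn1, a matrix protein induced by serum response factor and YAP, read 8.96, 9.40, 9.29 and 9.54 in GMA-MS lungs, against 10.82, 10.70, 10.40 and 10.29 in sham lungs. The groups did not overlap, and Ccn1 was 2.39-fold lower (log2 difference −1.26 ± 0.17 SE, adjusted p = 0.0033 in limma). A second Ccn1 probe was 1.75-fold lower (adjusted p = 0.017 in limma), also without overlap. Of the 12 detected serum response factor and YAP targets Ccn1 was the only call, 9 had a lower mean, and Ccn2 differed by −0.42 with an adjusted p of 0.25 in limma. Sertad1, a regulator of E2F and cyclin D kinases, and Tob1, an antiproliferative protein, each differed by −0.45, with adjusted p values of 0.038 and 0.0039 in limma. For Tob1 the values were 9.92, 9.85, 10.02 and 9.64 in GMA-MS lungs, against 10.30, 10.24, 10.35 and 10.33 in sham lungs, without overlap, and for Sertad1 the groups overlapped. Csrnp2, a nuclear protein, differed by −0.42 ± 0.06 (adjusted p = 0.0039 in limma) with overlap.

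**Figure D3:**
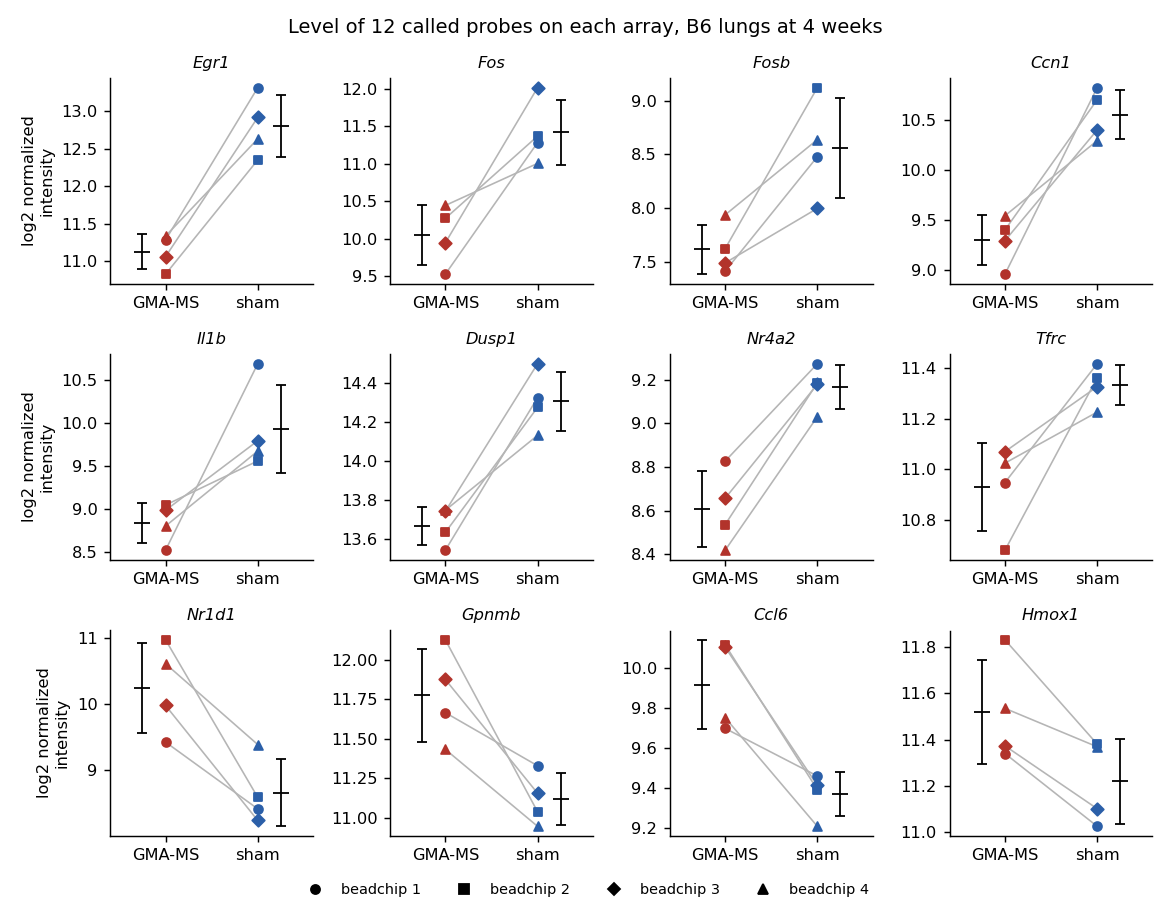
Log2 normalized intensity (y axes) of 12 called probes in each GMA-MS lung (red, left) and sham lung (blue, right), with grey lines joining arrays of 1 beadchip and bars giving mean ± SD (n = 4). Only Hmox1 of the 12 genes had overlapping groups, and each line runs the same way within a panel.

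Nr1d1, which codes for the clock repressor REV-ERBα, had the largest called rise. Its brightest called probe read 9.42, 10.97, 9.98 and 10.61 in GMA-MS lungs, against 8.41, 8.58, 8.23 and 9.38 in sham lungs. Every GMA-MS value lay above every sham value, though GMA-MS array 1 and sham array 4 were close. The mean was 10.25 ± 0.69 in GMA-MS lungs and 8.65 ± 0.51 in sham lungs (SD, n = 4 each), a 3.02-fold rise (log2 difference 1.59 ± 0.29 SE, adjusted p = 0.017 in limma). A second Nr1d1 probe rose 2.01 fold, with an adjusted p of 0.025 in limma, and its groups overlapped. Another probe of the gene did not pass the test, with a difference of 0.03 ± 0.07, and was detected on all 8 arrays. The first of these probes kept its call with 3 of the 8 arrays left out in turn.

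Nr1d1 was the only call among 14 detected clock genes, 8 of which had a higher mean and 6 a lower one. Arntl, the activator that REV-ERBα represses, differed by −0.27 with an adjusted p of 0.31 in limma. Dbp, a clock output gene, differed by 0.73 and Per2, a clock repressor, by 0.28, neither past the test, and the GMA-MS and sham values of Per2 did not overlap. Per1 differed by 0.16, Clock by −0.06 and Nr1d2, the paralog of Nr1d1, by −0.17. The hour of sacrifice is not given in the sources used here.

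Of 26 detected genes of iron, manganese and metal handling, 2 were called, Hmox1 higher and Tfrc lower, and the median difference was 0.01. Hmox1, heme oxygenase 1, read 11.34, 11.83, 11.37 and 11.53 in GMA-MS lungs, against 11.03, 11.38, 11.10 and 11.37 in sham lungs. It was higher in GMA-MS lungs on each beadchip while the groups as a whole overlapped, and it rose 1.23 fold (log2 difference 0.30 ± 0.06 SE, adjusted p = 0.031 in limma). Without the beadchip in the model Hmox1 was not called. Tfrc, the transferrin receptor, read 10.95, 10.68, 11.07 and 11.02 in GMA-MS lungs, against 11.42, 11.36, 11.33 and 11.23 in sham lungs. It was 1.32-fold lower without overlap (adjusted p = 0.042 in limma). The ferritin subunits Fth1 and Ftl1 differed by −0.04 and −0.06, the iron exporter Slc40a1 by −0.18 and the metal importer Slc11a2 by 0.14, and none of these passed the test. The metallothioneins, which bind zinc and other metals, differed by 0.25 for Mt1, whose groups did not overlap, and by 0.10 for Mt2, again without a call. Slc39a8 and Atp13a2, also members of this list, had differences of −0.07 and 0.07. Of 22 detected NRF2 antioxidant genes Hmox1 was the only call, and the median difference of that list was −0.03.

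Gpnmb, a glycoprotein of macrophages loaded with lipid or particles, rose on both of its probes. The brighter probe read 11.67, 12.13, 11.88 and 11.43 in GMA-MS lungs, against 11.33, 11.04, 11.16 and 10.95 in sham lungs, and the other read 8.71, 9.14, 8.84 and 8.79 in GMA-MS lungs, against 8.44, 8.41, 8.41 and 8.27 in sham lungs. Neither pair of groups overlapped, and the rises were 1.58 and 1.40 fold with adjusted p values of 0.042 and 0.031 in limma. Gpnmb was the only call among 18 detected genes of alveolar macrophages and particle load, whose median difference was 0.04. Marco, a scavenger receptor for particles, had a mean 1.66-fold higher and Mmp12, macrophage elastase, 1.55-fold higher, with adjusted p values of 0.24 and 0.11 in limma. Mmp12 read 8.36, 8.597, 8.56 and 8.40 in GMA-MS lungs, against 7.87, 7.84, 7.85 and 7.83 in sham lungs, without overlap. Ctsk and Trem2 also had higher means without overlap, by 0.41 and 0.31, and did not pass the test. The macrophage genes Lyz2, Mrc1, Pparg and Itgax differed by −0.08, −0.06, −0.04 and 0.05.

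Among 20 detected chemokines 2 were called, both higher, against 0.37% of all probes called. Of the 20, 15 had a higher mean and 5 a lower one, against 47.0% of all probes with a lower mean. Ccl6, a chemokine of mouse macrophages and granulocytes, read 9.70, 10.11, 10.10 and 9.75 in GMA-MS lungs, against 9.46, 9.39, 9.41 and 9.21 in sham lungs. It rose 1.46 fold without overlap (log2 difference 0.55 ± 0.12 SE, adjusted p = 0.049 in limma), just inside the threshold. Ccl17, a ligand of CCR4 on T cells, read 9.26, 9.23, 9.26 and 9.28 in GMA-MS lungs, against 8.85, 8.57, 8.65 and 8.85 in sham lungs. It rose 1.44 fold without overlap (adjusted p = 0.017 in limma). The monocyte chemokines Ccl7 and Ccl12 differed by 0.08 and 0.44, and the neutrophil chemokines Cxcl1 and Cxcl5 by 0.13 and 0.42, none past the test.

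Il1b, which codes for interleukin 1 beta, read 8.52, 9.04, 8.98 and 8.80 in GMA-MS lungs, against 10.69, 9.56, 9.79 and 9.67 in sham lungs. The groups did not overlap, and the highest sham value was again that of sham array 1. Il1b was 2.13-fold lower in GMA-MS lungs (log2 difference −1.09 ± 0.21 SE, adjusted p = 0.031 in limma), and it kept its call in 1 of the 8 fits that left out an array. It was the only call among 9 detected genes of the interleukin 1 family and its pathway, 6 of which had a lower mean. Myd88, the adaptor of the interleukin 1 and Toll-like receptors, was 1.20-fold lower (adjusted p = 0.038 in limma), lower on each beadchip, with groups that overlapped. Hmgb1, a chromatin protein that signals when released from cells, read 11.35, 11.35, 11.37 and 11.37 in GMA-MS lungs, against 11.66, 11.80, 11.64 and 11.75 in sham lungs. It was 1.279-fold lower without overlap (adjusted p = 0.031 in limma), and this call was lost with any 1 of the 8 arrays left out.

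Of 12 detected neutrophil genes 0 were called in limma and 9 had a lower mean, where 47.0% of all probes did. Their median difference was −0.16. S100a9, a calcium binding protein abundant in neutrophils, read 11.06, 11.89, 12.001 and 11.94 in GMA-MS lungs, against 13.38, 11.84, 12.02 and 12.51 in sham lungs. The groups overlapped, and its difference of −0.72 ± 0.27 had an adjusted p of 0.37 in limma. It was −2.32 on beadchip 1 and 0.05, −0.02 and −0.57 on the others, and without sham array 1 the difference was −0.34, without GMA-MS array 1 −0.45. S100a8 differed by −0.55 and Csf3r, the receptor for granulocyte colony-stimulating factor, by −0.45, and Lcn2, a protein that binds iron carriers of bacteria, by 0.48, with no overlap between groups for Lcn2 and no call for any of them. The lists of interferon responsive genes, MHC class II, T and natural killer cells, B and plasma cells, acute phase and complement, and cell division, with 12 to 14 detected genes each, held 0 calls. A lower mean was seen for 11 of the 13 B and plasma cell genes. For T and natural killer cells 9 of 13 were higher. All 7 detected genes of erythroid cells and blood had a lower mean, with 0 calls and a median difference of −0.14. Their median level was 10.85, 10.81, 11.00 and 11.04 in GMA-MS lungs, against 11.46, 10.60, 11.58 and 11.15 in sham lungs. The part of blood in these values was not tested. Collagen and matrix remodelling held 0 calls among 26 detected genes, with a median difference of 0.01.

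Trib3 and Chac1, which ATF4 induces when the endoplasmic reticulum or amino acid supply is under stress, were both higher. Trib3 read 9.34, 9.14, 9.29 and 9.30 in GMA-MS lungs, against 9.10, 8.43, 8.95 and 8.81 in sham lungs. It rose 1.36 fold (adjusted p = 0.032 in limma) without overlap. Chac1, an enzyme that breaks down glutathione, read 9.35, 9.18, 9.23 and 9.64 in GMA-MS lungs, against 9.13, 8.83, 8.74 and 9.05 in sham lungs, and rose 1.33 fold (adjusted p = 0.031 in limma), also without overlap. They were the 2 calls among 16 detected genes of endoplasmic reticulum stress, against 0.37% of all probes called. Of the 16, 14 had a higher mean and 2 a lower one, against 47.0% of all probes with a lower mean. The median difference was 0.18. The others included Herpud1 at 0.38, Hyou1 at 0.29, Ddit3 at 0.28 and the chaperone Hspa5 at 0.07, and Atf4 itself had a lower mean, at −0.19. Heat shock genes held 0 calls among 13 detected.

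Vascular genes were called in small numbers. Adm, which codes for the vasodilator adrenomedullin, read 8.85, 8.53, 8.97 and 8.63 in GMA-MS lungs, against 9.47, 9.19, 9.08 and 9.32 in sham lungs, and was 1.43-fold lower without overlap (adjusted p = 0.049 in limma). Calcrl, the receptor that binds adrenomedullin together with Ramp2, read 9.04, 9.47, 9.03 and 9.60 in GMA-MS lungs, against 9.61, 9.91, 9.44 and 9.83 in sham lungs. It was 1.33-fold lower (adjusted p = 0.038 in limma), lower on each beadchip with groups that overlapped. Calcrl was the only call among 22 detected genes of lung endothelium, and Adm the only call among 16 flow-responsive endothelial genes. Klf2 and Klf4, transcription factors induced by blood flow, had lower means that did not pass the test. For Klf2 the difference was −0.47 ± 0.13 with an adjusted p of 0.19 in limma, and 3 probes of Klf4 differed by −0.46, −0.29 and 0.08, with adjusted p values of 0.30, 0.36 and 0.93 in limma. Kcne4, a subunit that inhibits voltage-gated potassium channels, read 8.45, 8.52, 8.58 and 8.47 in GMA-MS lungs, against 8.83, 8.86, 8.97 and 8.91 in sham lungs. The groups did not overlap, and each spanned less than the gap between them. It was lower by a log2 difference of −0.38 (± 0.06 SE, adjusted p = 0.0034 in limma).

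Npr3, the clearance receptor of natriuretic peptides, had a mean above that of sham lungs by 0.58 ± 0.15 with an adjusted p of 0.12 in limma. Ch25h, which makes the oxysterol 25-hydroxycholesterol, read 9.33, 10.14, 9.73 and 9.32 in GMA-MS lungs, against 8.82, 9.25, 8.97 and 8.90 in sham lungs. Depp1, a gene induced by FoxO factors, read 11.02, 11.50, 11.34 and 11.69 in GMA-MS lungs, against 10.83, 10.63, 10.70 and 10.75 in sham lungs. Neither pair of groups overlapped, and the means were 1.57-fold and 1.58-fold higher. The adjusted p values were 0.099 and 0.066 in limma, so neither passed the test. Angptl4, an inhibitor of lipoprotein lipase, differed by 0.74 ± 0.28 on its brighter probe, with an adjusted p of 0.36 in limma and overlap. None of the 21 detected glucocorticoid and fasting responsive genes was called in limma, and 14 of them had a higher mean.

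Gpr146, a G protein-coupled receptor, was the higher call that each left-out array preserved. It read 9.95, 9.86, 10.24 and 9.70 in GMA-MS lungs, against 9.68, 9.38, 9.39 and 9.25 in sham lungs, without overlap, and rose 1.43 fold (log2 difference 0.52 ± 0.08 SE, adjusted p = 0.0047 in limma). The other higher calls were Shank3, a scaffold protein of synapses, at 1.35 fold, Rai1 at 1.34 fold, Vsig2 at 1.282 fold, Prr18 and Fam184a at 1.23 fold each and Ears2, a mitochondrial glutamyl-tRNA synthetase, at 1.22 fold, none with overlapping groups. Chtf18, which helps to load the sliding clamp onto DNA, was not detected in sham lungs and was detected on 2 GMA-MS arrays. It was 1.29-fold higher in the fit (adjusted p = 0.038 in limma). With sham values raised to the lowest detected signal of their arrays it was 1.21-fold higher, or 0.28 on the log2 scale. Its undetected GMA-MS values stayed as measured, so this is no strict lower limit. With the deposited values Chtf18 differed by 0.13 and with median scaling by 0.21, both smaller, and neither was called. The other lower calls were Slc25a25, a mitochondrial carrier of ATP-Mg and phosphate, at 1.29 fold, cardiac actin Actc1 at 1.279 fold, Golm2 at 1.24 fold, Vhl, the ubiquitin ligase subunit that marks hypoxia-inducible factors for degradation, at 1.19 fold, and Wipi1, an autophagy protein, at 1.18 fold. The groups did not overlap for Actc1 and Vhl and overlapped for the other 3. The cardiac muscle list had a lower median in GMA-MS lungs beside the fall of Actc1, and with the level of that list as a covariate its difference was −0.30 with an adjusted p of 0.057 in limma, against −0.35 without it. The part of heart muscle in this call was not tested further. Second probes of Rai1, Vsig2, Actc1 and Wipi1 were detected and not called, with differences of 0.11, 0.05, −0.26 and 0.02.

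**Figure D4:**
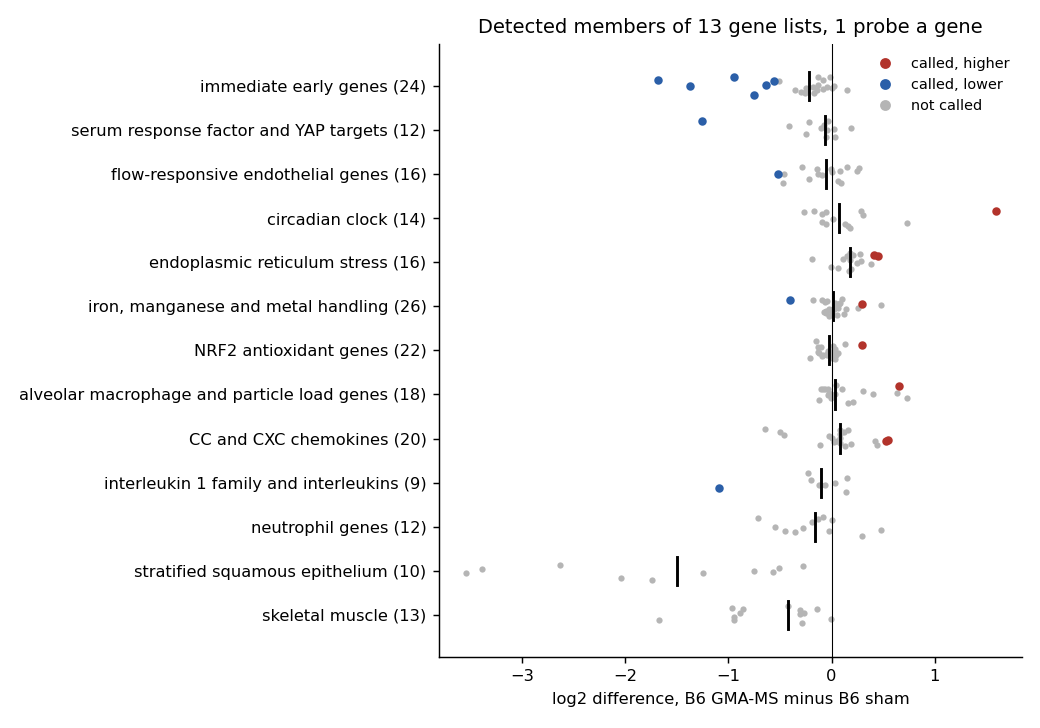
Log2 difference of GMA-MS minus sham (x axis) for the detected genes of 13 lists, 1 probe a gene, with the number of genes in brackets and a black bar at the median. Red and blue points are called higher and lower; the immediate early list holds 6 calls, and the squamous and muscle lists have the lowest medians and 0 calls.

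Whether the strain changed the response was tested as the difference between the GMA-MS effects in B6 and in A/J lungs. It was called for 14 of 11624 probes (0.12%), 2 of them with a higher effect in B6 (0.0172%) and 12 with a lower one (0.103%). With arrays scaled to the median of probes detected on every array 0 were called higher and 2 lower, and the fit without the beadchip and the fit of the 16 compared arrays alone called 2 each. Without B6 sham array 2, A/J GMA-MS array 1 or 4 or A/J sham array 4 the count was 12 to 15, and without any other of the 16 arrays it was 3 to 9. Egr1 read 11.07, 11.33, 11.10 and 11.39 in A/J GMA-MS lungs, against 11.29, 10.90, 11.69 and 11.16 in A/J sham lungs, values that overlap each other and those of the B6 GMA-MS lungs. Every B6 sham lung read higher than every A/J lung. The GMA-MS effect on Egr1 was −1.68 in B6 and −0.04 in A/J lungs, and the difference of −1.64 ± 0.23 had an adjusted p of 0.0033 in limma. Fos and the brighter probe of Ccn1 also differed between strains, with A/J effects of 0.09 and 0.15 and differences of −1.46 and −1.41 (adjusted p = 0.040 and 0.028 in limma). The dimmer Ccn1 probe differed between strains by −0.79 and did not pass the test (adjusted p = 0.16 in limma).

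Hmgb1 had the lowest adjusted p of this comparison. It read 11.85, 12.12, 11.87 and 12.08 in A/J GMA-MS lungs, against 11.44, 11.73, 11.54 and 11.53 in A/J sham lungs, so that it was higher in GMA-MS lungs in A/J and lower in B6. The difference of −0.77 ± 0.10 had an adjusted p of 0.0027 in limma, and it was called in the fit of the 16 compared arrays alone and with each of the 16 arrays left out. Vhl and Calcrl also had effects of opposite sign, −0.25 and −0.41 in B6 lungs and 0.22 and 0.31 in A/J lungs, with differences of −0.48 and −0.73 (adjusted p = 0.0033 and 0.019 in limma). The A/J effect of Calcrl did not pass the test by itself (adjusted p = 0.086 in limma). Vps4b, an ATPase of membrane scission, differed between strains by −0.58 (adjusted p = 0.028 in limma). Mmp12 read 10.20, 10.98, 10.12 and 9.99 in A/J GMA-MS lungs, against 8.38, 8.63, 8.40 and 8.62 in A/J sham lungs. Its effect of 0.63 in B6 lungs, which was not called, was smaller than that of 1.81 in A/J lungs (difference −1.19, adjusted p = 0.040 in limma). With 1 array left out in turn, the strain difference of Egr1 was called in all 16 fits and that of Calcrl in 9. Those of Fos, the brighter Ccn1 probe and Mmp12 were called in 5, 6 and 3 of the 16. Calcrl was not called without the beadchip in the model or in the fit of the 16 compared arrays alone. For Nr1d1, Gpnmb, Ccl6, Chac1 and Tfrc the differences between strains were 0.16, 0.17, 0.05, −0.04 and −0.13, none past the test.

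The fumes were compared in B6 lungs as GMA-MS against GMA-SS, with 0 of 11624 probes called in limma (0%) and 1108 at an unadjusted p under 0.05. Egr1 read 11.37, 11.27, 11.28 and 11.00 in GMA-SS lungs, and the difference between fumes was −0.10 ± 0.16. For Fos and Ccn1 it was −0.22 and 0.05. The effects of GMA-SS against sham were −1.58 for Egr1, −1.15 for Fos, −1.31 for Ccn1 and −0.94 for Fosb, and they rest on the same 4 sham arrays as those of GMA-MS. Nr1d1 had a mean above GMA-SS lungs by 1.22 ± 0.29 and Hmox1 by 0.28 ± 0.06, both with an adjusted p of 0.33 in limma. Without GMA-SS array 3 the count of called probes was 2.

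The change with time was tested as the GMA-MS effect at 4 weeks minus that at 16 weeks in B6 lungs, with all 48 arrays normalized together and the 2 times on different beadchips. It was called for 19 of 12158 probes (0.156%), 18 with a higher effect at 4 weeks (0.148%) and 1 with a lower one (0.00823%). The fit of the compared arrays alone called 0 with 1120 at an unadjusted p under 0.05, scaling to the median and cyclic loess called 0 each, and the fit without the beadchip called 1. The lower one was the brighter Ccn1 probe, with an effect of −0.10 at 16 weeks and a difference of −1.16 ± 0.25 (adjusted p = 0.041 in limma). The dimmer Ccn1 probe had a difference of −0.81 and was not called (adjusted p = 0.25 in limma). Rai1 had an effect of −0.28 at 16 weeks and a difference of 0.70 (adjusted p = 0.013 in limma). Other named calls, among them Nr5a1, Gdpd4 and Zfp661, had differences of 0.40 to 0.49 and effects of −0.37 to −0.62 at 16 weeks, and these 3 were not called at 4 weeks. Without GMA-MS array 2 of 16 weeks 11 probes were called. For Egr1 and Fos the effect at 16 weeks was −0.29 and −0.15, and the difference between times was not called (adjusted p = 0.12 and 0.29 in limma). Of the probes called at 4 weeks, 9 were called in the same direction at 16 weeks, 5 higher and 4 lower. The share of all probes called at 16 weeks is not given here, so this count has no background to be read against. Nr1d1 was among the higher ones with 2 probes, at 1.38 ± 0.25 and 0.66 (adjusted p = 0.0024 and 0.031 in limma). Hmox1 with 0.31, Trib3 with 0.46 and Chac1 with 0.34 were the others (adjusted p = 0.020, 0.00066 and 0.036 in limma). The differences between times were 0.19 and 0.30 for the Nr1d1 probes and −0.01, −0.03 and 0.07 for Hmox1, Trib3 and Chac1. The lower ones were Nr4a2 with −0.35, Golm2 with −0.31, Vhl with −0.21 and a probe with no gene name with −0.45 at 16 weeks (adjusted p = 0.036, 0.024, 0.040 and 0.0064 in limma), and their differences between times were −0.19, −0.01, −0.05 and 0.01.

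**Figure D5:**
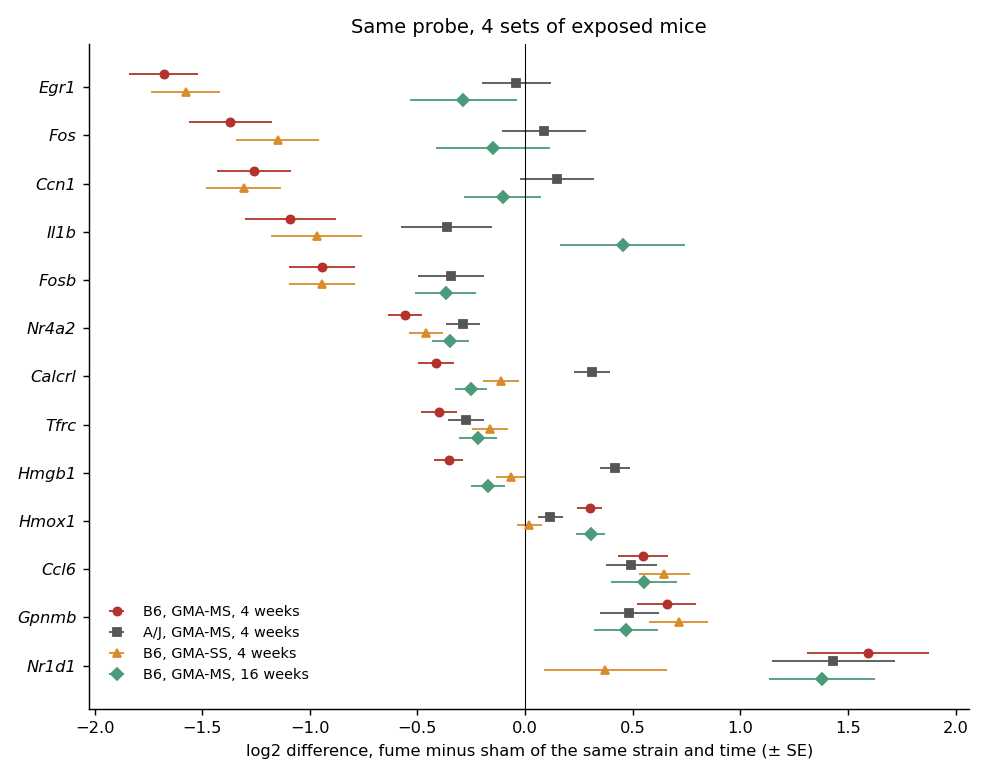
Log2 difference between fume and sham lungs of the same strain and time ± SE (x axis) for 1 probe of 13 genes in 4 sets of exposed mice: B6 with GMA-MS at 4 weeks, A/J with GMA-MS at 4 weeks, B6 with GMA-SS at 4 weeks and B6 with GMA-MS at 16 weeks. Egr1, Fos and Ccn1 lie between −1.68 and −1.15 in the B6 sets of 4 weeks, which share their sham arrays, and between −0.29 and 0.15 in the other sets, Fosb was not detected in GMA-MS lungs of A/J mice or of 16 weeks, and Nr1d1 lies between 1.38 and 1.59 in the GMA-MS sets and at 0.37 in the GMA-SS set.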

How the data were processed

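For each probe, the authors deposited its unnormalized intensity, a mean over beads, with bead numbers and detection p values from BeadStudio. The deposited p values compare each probe with the negative controls of its array. The authors also deposited log2 values from lumi, in which an offset made all values positive before variance stabilization and a robust spline set arrays on 1 scale, which served here as an alternative. Intensities of 24613 probes (4 probe identifiers listed more than once were averaged) were background corrected by the normal-exponential model of limma 3.58.1 in R 4.3.3, taking background from the detection p values with offset 16, set on a log2 scale and quantile normalized within the time point. Probes with a detection p under 0.01 on at least 4 of 24 arrays were tested in a model of 6 groups and 4 beadchips, with Benjamini-Hochberg adjustment over all of them and calls at 0.05. The study's methods name no block. Replicate numbers follow the beadchips, and deviations from group means correlated within beadchips (mean r of 0.24, 0.40, 0.33 and 0.30). Between beadchips the mean r was −0.11. Deviations from a group mean cancel out within the group, which by itself gives this value the opposite sign, so it adds nothing about the block. B6 GMA-MS and sham arrays of 1 beadchip correlated at 0.51, 0.06, 0.71 and 0.47.

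Probes were named through the array's annotation, and 20984 had 1 gene symbol. In each list the brightest detected probe stood for its gene. A gene not detected in a group has a bound on its fold, from the lowest detected signal of each array. Undetected values of the other group stayed as measured, so the bound is no strict lower limit. Named genes were the 15 largest calls each way with 1 sign on all beadchips, genes named in the study's text, called members of 38 lists (up to 6 a list) and up to 8 probes of each further comparison; the remaining calls, second probes and uncalled list members were named after their values were seen. The groups, gene lists and tests were chosen with earlier results of these data known. The p values of the 4 week comparisons rest on a spread estimated from all 24 arrays of that time. Those of the change with time rest on all 48 arrays. They speak only for the lungs and arrays of this study. The number of arrays limits the precision. Plots used Python 3.11.15 and matplotlib 3.10.9.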

Additional observations from a re-analysis of the deposited data

Results flagged for a closer look

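Among 112 groups of 4 values of the called or study-named probes, 4 had an array far from the other 3 by Dixon's criterion, and chance flags about 1 in 20 groups. S100a9 read 11.06 on GMA-MS array 1, against 11.89 to 12.001 on the other GMA-MS arrays. Vsig2 read 11.07 on GMA-MS array 4, against 10.87 to 10.90 on the others. The dimmer Angptl4 probe read 7.37 on sham array 4, against 7.68 to 7.69 on the others, and a called probe with no gene name read 8.15 on sham array 3, against 7.95 to 7.96.

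The GMA-MS effect differed between strains, B6 minus A/J on the log2 scale, by −0.77 for Hmgb1, −1.64 for Egr1, −0.73 for Calcrl, −1.41 for Ccn1, −0.58 for Vps4b, −1.19 for Mmp12 and −1.46 for Fos. For Ptgs2 the fitted value was −0.92, but its probe was not detected on any B6 GMA-MS array and gives no measured size there. Between times, 4 weeks minus 16 weeks in B6 lungs, it differed by 0.41 for Nr5a1, 0.40 for Gdpd4, 0.70 for Rai1, −1.16 for Ccn1 and 0.49 for Zfp661. The fitted values of Ccdc173 (0.37), Olfr1037 (0.40) and Prm2 (0.47) are no measured sizes, since the probes were not detected on any B6 GMA-MS array of 16 weeks, and that of Prm2 on 1 of the 24 arrays of 4 weeks. Each of these passed the adjusted threshold in the test of the difference itself in limma. The Ccn1 values are those of its brighter probe, and the dimmer probe passed neither test.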

How the results depend on the processing

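For GMA-MS against sham, 43 probes were called. The count was 6 without the replicate block, 0 with the compared arrays alone, 5 with median scaling, 11 with cyclic loess, and 24, 26 and 18 with the squamous, skeletal muscle and cardiac levels as covariates, which were added after seeing the data. With 1 array left out it was 10 to 24. Under the other 7 alternatives it was 34 to 48. With the deposited values all 43 probes kept their sign, 35 their call, and for 13 the difference was over 1.5 times smaller; these include Fosb, Atf3, Chtf18, Nr4a2, Kcne4, and the dimmer probes of Ccn1, Nr1d1 and Gpnmb. With median scaling Trib3 differed by 0.30 and Chtf18 by 0.21. The strain difference, 14 calls, gave 2 without the replicate block, 2 with the compared arrays alone, 2 with median scaling, 4 with cyclic loess, 5 without a filter and 3 to 15 with 1 array left out. GMA-MS against GMA-SS gave 0 throughout and 0 to 2 with 1 array left out. The time difference, 19 calls, gave 1 without the replicate block, 0 with the compared arrays alone, 0 with median scaling, 0 with cyclic loess and 11 to 23 with 1 array left out. A left-out array leaves 3 lungs in its group. The dimmest Klf4 probe changed sign, to −0.029 with median scaling and −0.098 without sham array 4 (−0.098 to 0.26 with 1 array left out). The uncalled Nr1d1 probe changed sign, to −0.0040 without GMA-MS array 1 (−0.0040 to 0.074 with 1 array left out). Neither was called. Calls near the threshold, such as Ccl6 and Adm, cannot be resolved with 4 lungs a group. The causes of these changes were not tested.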
